A study of Homo sapiens with 18 samples.

Results

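The 6 genes described here encode enzymes of the last stretch of cholesterol synthesis, from lanosterol to cholesterol: CYP51A1, MSMO1, NSDHL, HSD17B7, DHCR7 and LBR. They were taken by name from 3 deposited tables, which together list 3647 genes, and all 6 were in at least 1 table. The cells were Cal51, a human breast cancer cell line, treated for 8 h. The 4 groups, of 3 libraries each, were fenofibrate plus ezetimibe (here the combination), ezetimibe, fenofibrate and DMSO, the solvent control. Fenofibrate is a lipid-lowering drug that activates the nuclear receptor PPARα, and ezetimibe is an inhibitor of the sterol transporter NPC1L1. The labels give no dose, and nothing in them says that the 3 libraries of a group came from separate cultures, so the p-values may measure technical spread. The 6 other libraries of the series, PKM2 KO cells and their control, are not analysed here. Each table sets 1 treatment against the same 3 DMSO libraries, and it keeps only genes that moved by more than 1 on the log2 scale in the authors' own test, at an adjusted p below 0.05. A gene that is absent from a table is written as not listed. It may have been unchanged, changed by less, changed without reaching that adjusted p, or not tested.

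Cholesterol is made in the endoplasmic reticulum. An early arm builds squalene and closes it into lanosterol, and a late arm trims methyl groups from lanosterol and moves and reduces its double bonds. CYP51A1 is the cytochrome that opens the late arm by removing the first methyl group. The product has a double bond that is reduced by LBR or by its relative TM7SF2. MSMO1, NSDHL and HSD17B7 then act in turn to remove the remaining pair of methyl groups, and DHCR7 carries out the final reduction to cholesterol. Many genes of both arms are activated by SREBP2, a membrane-bound transcription factor released when sterols in the endoplasmic reticulum are low. LBR has another function, as its name lamin B receptor says: it sits in the inner nuclear membrane, where it binds the lamina and heterochromatin.

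The sequences just before the starts of the 6 genes are shown because 5 of the genes were higher with at least 1 treatment and SREBP2 is known to act at promoters together with the factors NF-Y and Sp1. They are the 150 bases before the annotated start from RefSeq (build GRCh38.p14), read along the gene's own strand. All 6 genes were matched by symbol. The RefSeq starts need not be the ends of the deposited gene spans given below. The windows shown for CYP51A1 and DHCR7 lie wholly inside those spans, and those of MSMO1, NSDHL and LBR partly. DHCR7 has a further annotated start, whose window held no NF-Y box and is not shown. Capitals mark the NF-Y box, CCAAT on either strand (ATTGG when read on the other).
MSMO1, chr4:165327519-165327668, plus strand: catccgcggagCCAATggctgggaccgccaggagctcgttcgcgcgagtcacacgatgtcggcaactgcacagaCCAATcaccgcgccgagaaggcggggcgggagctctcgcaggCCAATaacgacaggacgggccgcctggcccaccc
NSDHL, chrX:152830913-152831062, plus strand: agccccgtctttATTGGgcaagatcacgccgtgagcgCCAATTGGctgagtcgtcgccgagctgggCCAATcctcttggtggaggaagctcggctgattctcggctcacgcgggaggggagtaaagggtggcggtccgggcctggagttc
HSD17B7, chr1:162790552-162790701, plus strand: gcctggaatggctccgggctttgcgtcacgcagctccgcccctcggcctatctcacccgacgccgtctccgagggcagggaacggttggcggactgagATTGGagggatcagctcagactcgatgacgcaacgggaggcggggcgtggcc
DHCR7, chr11:71448394-71448543, minus strand: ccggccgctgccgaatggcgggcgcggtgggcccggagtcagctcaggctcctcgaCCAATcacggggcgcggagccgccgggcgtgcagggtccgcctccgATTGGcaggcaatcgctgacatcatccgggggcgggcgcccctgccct
CYP51A1, chr7:92134478-92134627, minus strand: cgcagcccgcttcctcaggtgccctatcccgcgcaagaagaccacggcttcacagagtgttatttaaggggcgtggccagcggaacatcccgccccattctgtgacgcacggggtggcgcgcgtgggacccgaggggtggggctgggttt
LBR, chr1:225428822-225428971, minus strand: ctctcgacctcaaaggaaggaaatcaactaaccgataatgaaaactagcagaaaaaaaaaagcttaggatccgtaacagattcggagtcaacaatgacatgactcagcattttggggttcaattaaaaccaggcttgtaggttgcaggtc

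The NF-Y box occurred 3 times in the MSMO1 window, 4 times in that of NSDHL, 2 times in that of DHCR7 and 1 time in that of HSD17B7. In NSDHL a pair of boxes on opposite strands overlap. The windows of CYP51A1 and LBR held 0. Of 35116 annotated promoters cut to the same length, 23.5% held the box. In the windows shown, the 4 genes with the box are the 4 that were listed with fenofibrate. The 2 without it are the 2 that were not. This division rests on the start shown for DHCR7, since the window of its further start held 0. The other treatments did not divide the genes in this way. With ezetimibe MSMO1 and DHCR7, with the box, and CYP51A1, without it, were listed. NSDHL and HSD17B7, with the box, and LBR, without it, were not. With the combination HSD17B7, with the box, and CYP51A1 and LBR, without it, were listed. MSMO1, NSDHL and DHCR7, with the box, were not. Sp1 boxes, GGGCGG on either strand, were found in the windows of MSMO1, HSD17B7, DHCR7 and CYP51A1, 1 in each, and in 36.8% of all promoters. A sterol regulatory element spelled TCACNCCAC, on either strand, was found in 0 of the 6 windows and in 0.552% of all promoters. These matches describe the letters of a short window and were not tested against the values.

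No gene of the 6 was in all 3 tables, and which genes were listed differed by treatment. In the authors' deposited tables the combination had 3 of the 6: HSD17B7 and CYP51A1, higher, and LBR, lower. Ezetimibe had 3, all higher: DHCR7, MSMO1 and CYP51A1. Fenofibrate had 4, all higher: MSMO1, DHCR7, HSD17B7 and NSDHL. MSMO1 and DHCR7, each higher with both single drugs, were not listed with the combination. Several listings lay close to the limit of 1 in the authors' log2 fold change. With the combination HSD17B7 had 1.03 and CYP51A1 1.01, while LBR had -1.47. With ezetimibe DHCR7 had 1.18, MSMO1 1.13 and CYP51A1 1.1. With fenofibrate NSDHL had 1.13, while HSD17B7 had 1.47, DHCR7 2.02 and MSMO1 2.11. Which genes are listed thus depends in part on the limit. Among all genes tested by the authors, 10.3% were listed as higher with the combination, 2.7% with ezetimibe and 0.761% with fenofibrate. As lower, 7.27% were listed with the combination, 0.772% with ezetimibe and 0.0737% with fenofibrate. The number of genes tested was inferred from the ranks behind the adjusted p-values, as 19944 for the combination, 13596 for ezetimibe and 12215 for fenofibrate. A whole rank came from 89.7% of the p-values used for the combination, 89.1% for ezetimibe and 58.8% for fenofibrate, whose number is the least certain.

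**Figure D1:**
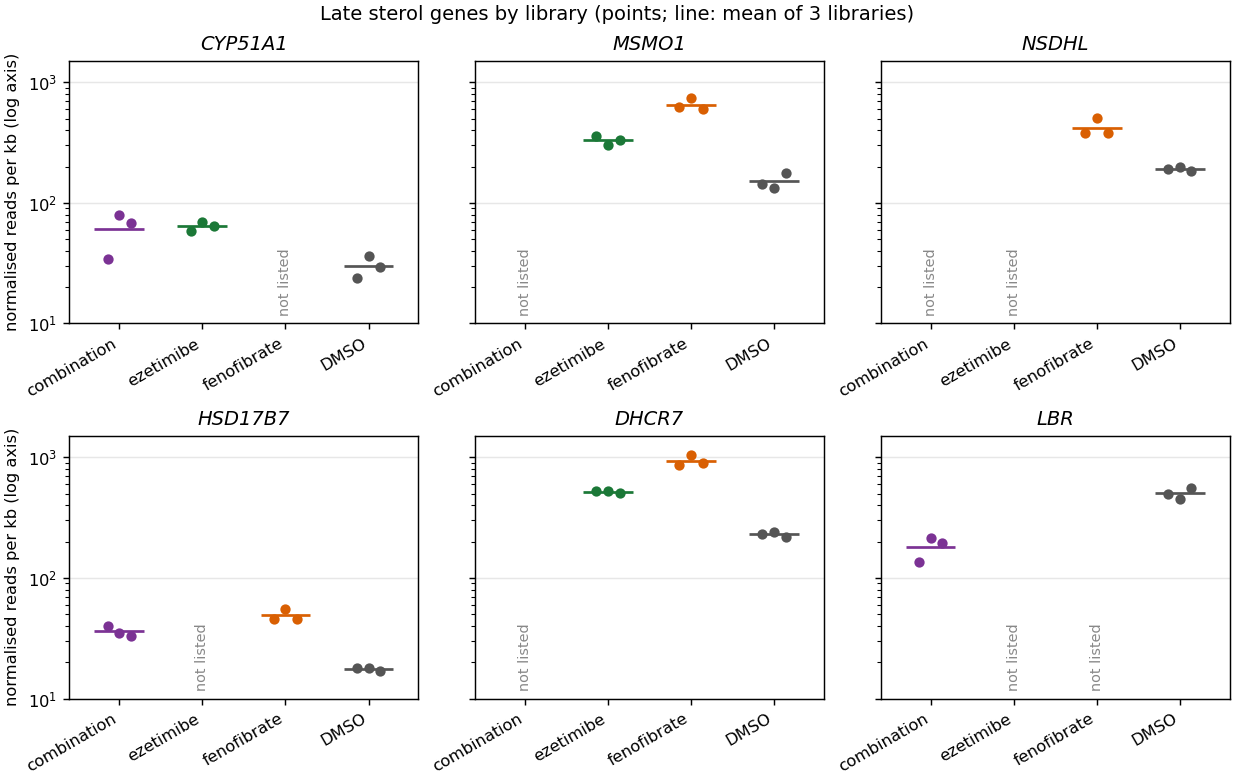
Level of each gene in every library, in normalised reads per kb on a log axis, with the tables put on 1 scale. Points are libraries, lines are means of 3, and groups in which a gene was not listed carry no value. MSMO1 and DHCR7 stand highest with fenofibrate, and LBR is lower with the combination than with DMSO.

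The largest changes of the 6 genes were those of MSMO1 and DHCR7 with fenofibrate. Relative to DMSO, MSMO1 was 2.18-fold higher with ezetimibe and 4.32-fold higher with fenofibrate. DHCR7 was 2.26-fold higher with ezetimibe and 4.05-fold higher with fenofibrate. Values in the following are normalised read counts as deposited, and log2 differences are given with the SE of limma, a linear model with a spread shared across genes, on log2 of the value plus 1. Adjusted p-values are those of limma over all genes of the table. The genes were listed on the same libraries, so the tests against DMSO are not independent of the listing. In bulk RNA, fewer cells that express a gene and less of its RNA per cell cannot be told apart. Limma called 100% of the genes in the fenofibrate and combination tables and 99.8% of those in the ezetimibe table.

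MSMO1 (ENSG00000052802, chromosome 4, 165327623 to 165343160, plus strand), the oxidase that starts the removal of the remaining pair of methyl groups, had 1035, 876 and 959 normalised reads with ezetimibe, against 419, 385 and 511 with DMSO. The means were 957 ± 79.7 with ezetimibe and 438 ± 65.0 with DMSO (SD, n = 3 each), a log2 difference of 1.13 ± 0.12 (limma adjusted p = 1.57e-06). With fenofibrate the 3 libraries had 1757, 2078 and 1698, against 408, 373 and 498 with DMSO. The means were 1844 ± 204 with fenofibrate and 427 ± 64.7 with DMSO (SD, n = 3 each), a log2 difference of 2.11 ± 0.13 (limma adjusted p = 8.84e-07). With each drug all 3 treated libraries were above all 3 DMSO libraries. Neither absence of overlap is particular to MSMO1, since 98.3% of the listed genes showed it with ezetimibe and 98% with fenofibrate.

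DHCR7 (ENSG00000172893, chromosome 11, 71428193 to 71452868, minus strand), the reductase of the final step, followed the same order. Its 3 libraries had 2209, 2212 and 2099 normalised reads with ezetimibe, against 969, 1009 and 905 with DMSO. The log2 difference was 1.18 ± 0.07 (limma adjusted p = 2.07e-08). With fenofibrate they had 3493, 4245 and 3618, against 943, 977 and 883 with DMSO. The log2 difference was 2.01 ± 0.09 (limma adjusted p = 3.25e-07), and treated and DMSO libraries were well apart for both drugs. An antisense gene inside the DHCR7 locus, AP002387.1 (chromosome 11, 71448674 to 71452157, plus strand), was also listed as higher with fenofibrate, with 82.0, 110.5 and 77.1 normalised reads with fenofibrate, against 31.5, 42.8 and 22.9 with DMSO. Its exons share 0 bases with those of DHCR7 in GENCODE release 29. No source used here says whether the counting used strand.

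The direct comparison of the drugs was possible for these 2 genes. After scaling through the shared DMSO libraries, MSMO1 had 954 ± 79.5 with ezetimibe and 1891 ± 210 with fenofibrate (SD, n = 3 each), and DHCR7 had 2168 ± 64.4 with ezetimibe and 3882 ± 413 with fenofibrate. Both were thus lower with ezetimibe than with fenofibrate. The log2 difference, ezetimibe minus fenofibrate, was -0.98 ± 0.12 for MSMO1 (limma adjusted p = 1.8e-05) and -0.84 ± 0.08 for DHCR7 (limma adjusted p = 6.83e-06), adjusted over the 60 genes in both tables. Of these 60 genes 15% were called lower with ezetimibe and 43.3% higher. The 95% interval of the ratio was 0.424 to 0.603 for MSMO1 and 0.495 to 0.635 for DHCR7. In both genes all 3 ezetimibe libraries lay below all 3 fenofibrate libraries, and 73.3% of the 60 genes had no overlap in one direction or the other.

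**Figure D2:**
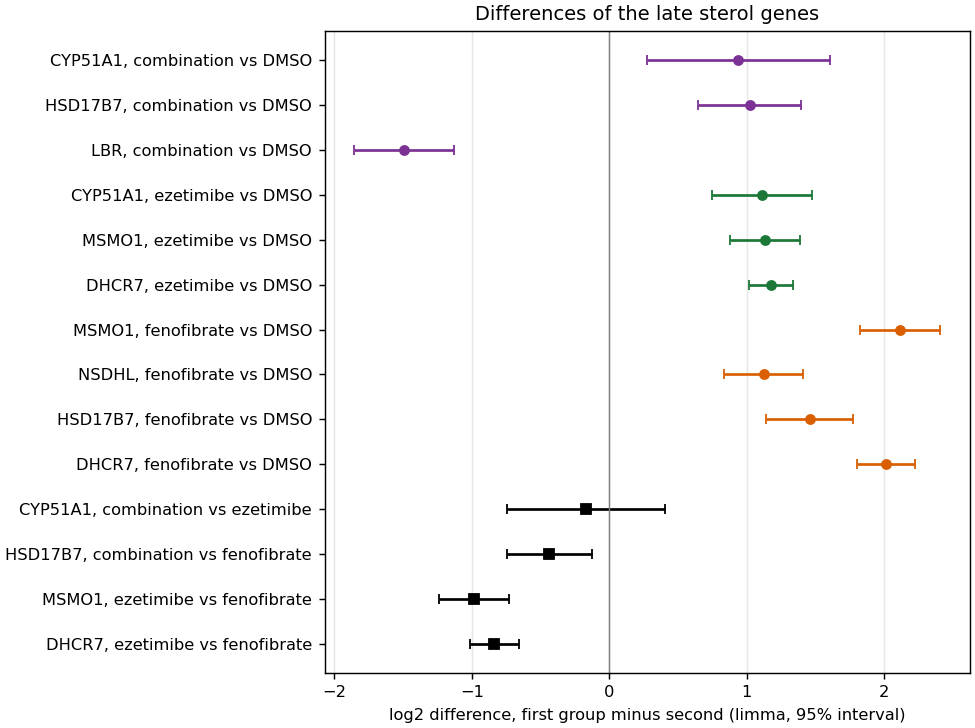
Log2 differences of the 6 genes with their 95% limma intervals, one row per gene and comparison, first group minus second. Circles are treatments against DMSO, and squares are treatments against each other. MSMO1 and DHCR7 lie at 1.13 and 1.18 with ezetimibe and at 2.11 and 2.01 with fenofibrate, and LBR with the combination is the one difference from DMSO below 0.

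NSDHL (ENSG00000147383, chromosome X, 152830967 to 152869729, plus strand), the dehydrogenase that acts after MSMO1, was listed with fenofibrate alone. It had 736, 982 and 741 normalised reads with fenofibrate, against 371, 387 and 361 with DMSO. All fenofibrate libraries were above all DMSO libraries, and fenofibrate replicate 2 was the highest. The ratio of the means was 2.20 and the log2 difference 1.12 ± 0.13 (limma adjusted p = 3.45e-05). The authors' deposited table gives a log2 fold change of 1.13, close to the listing limit of 1.

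HSD17B7 (ENSG00000132196, chromosome 1, 162790702 to 162812817, plus strand), the keto reductase that completes the removal of a methyl group, was higher with the combination and with fenofibrate. It had 191, 167 and 159 normalised reads with the combination, against 86.0, 85.4 and 81.1 with DMSO. The ratio was 2.05 and the log2 difference 1.02 ± 0.17 (limma adjusted p = 0.000175). With fenofibrate it had 213, 258 and 213, against 83.9, 83.0 and 79.2 with DMSO, a ratio of 2.78 and a log2 difference of 1.46 ± 0.14 (limma adjusted p = 1.23e-05). The DMSO libraries spanned a narrow range, and no treated library came near it. The libraries did not overlap in 99% of the genes listed with the combination. On 1 scale the combination reached 172 ± 16.5 and fenofibrate 234 ± 26.7 (SD, n = 3 each). HSD17B7 was therefore lower with the combination than with fenofibrate, with a ratio of 0.737, a 95% interval of 0.596 to 0.916 and a log2 difference of -0.44 ± 0.14 (limma adjusted p = 0.0140, over 65 genes). Of these 65 genes, 9.23% were called lower with the combination and 69.2% higher. The combination libraries of HSD17B7 lay below the fenofibrate libraries without overlap, and 76.9% of the 65 genes had no overlap in one direction or the other. The call was lost without combination replicate 3 (log2 -0.38, limma adjusted p = 0.0539) and without fenofibrate replicate 2 (log2 -0.34, limma adjusted p = 0.0646).

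HSD17B7 has a transcribed pseudogene, HSD17B7P2 (ENSG00000099251, chromosome 10, 38356380 to 38378505, plus strand), which was listed as higher in all 3 tables. It had 157, 131 and 110.1 normalised reads with the combination, against 15.6, 7.34 and 19.2 with DMSO, a ratio of 9.42 and a log2 difference of 3.23 ± 0.35 (limma adjusted p = 7.81e-06). With ezetimibe it had 28.9, 39.2 and 39.0, against 15.7, 7.37 and 19.2 with DMSO, and with fenofibrate 41.5, 67.0 and 49.1, against 15.3, 7.14 and 18.8 with DMSO. On 1 scale the pseudogene had 133 ± 23.4 with the combination and 53.9 ± 13.4 with fenofibrate, a log2 difference of 1.30 ± 0.34 (limma adjusted p = 0.00529), so it was higher with the combination while HSD17B7 was lower. Of the words of 50 bases in the GENCODE transcripts of HSD17B7P2, 45.9% occur in those of HSD17B7, and 13.6% of those of HSD17B7 occur in HSD17B7P2. No source used here says how reads that match both were counted, so the division of reads between the pair is uncertain. HSD17B7P2 also shares 13.5% of its exon bases with AL117339.5 on the same strand, which was listed as higher with the combination at 7.67, 23.2 and 31.6 normalised reads, against 5.86, 1.84 and 4.27 with DMSO.

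**Figure D3:**
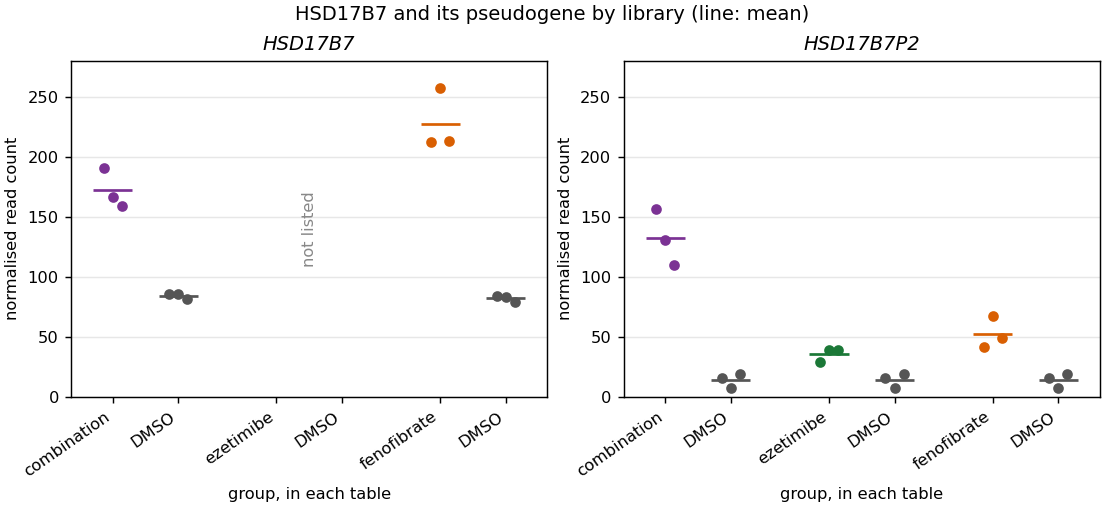
Normalised read counts of HSD17B7 and of its pseudogene HSD17B7P2 in every library, each treatment beside the DMSO libraries of its own table. Points are libraries and lines are means of 3. HSD17B7 is highest with fenofibrate, at a mean of 228, and HSD17B7P2 with the combination, at a mean of 133.

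CYP51A1 (ENSG00000001630, chromosome 7, 92112151 to 92134803, minus strand), the first enzyme of the late arm, was higher with ezetimibe and less firmly so with the combination. It had 122, 283 and 245 normalised reads with the combination, against 86.0, 130.4 and 106 with DMSO. Combination replicate 1 lay within the range of the DMSO libraries, and replicates 2 and 3 were above it. The ratio was 2.02 and the log2 difference 0.94 ± 0.30 (limma adjusted p = 0.0105). It was 1.31 (adjusted p = 0.000386) without combination replicate 1, and the call was lost without replicate 2 (log2 0.70, adjusted p = 0.0687) and without replicate 3 (log2 0.80, adjusted p = 0.0581). With ezetimibe CYP51A1 had 210.3, 252 and 229, against 86.2, 131 and 106 with DMSO, a ratio of 2.14 and a log2 difference of 1.11 ± 0.17 (limma adjusted p = 4.79e-05). The ezetimibe libraries were all above the DMSO libraries. The combination and ezetimibe were not told apart for this gene: the ratio was 0.942, the log2 difference -0.17 ± 0.27 (limma adjusted p = 0.608), and its 95% interval allows a ratio from 0.596 to 1.33. Without combination replicate 1 the log2 difference turned to 0.20 (limma adjusted p = 0.371). The libraries of the 2 groups overlapped, whereas 71% of the 359 genes listed for both had none. Of these genes, 53.2% were called higher with the combination and 10% lower.

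CYP51A1 overlaps other annotated genes and has near copies. In GENCODE release 29, whose coordinates equal those of the tables for all 6 genes, 79.4% of its 3584 exon bases also belong to AC000120.2, a protein-coding gene annotated on the same strand, and 3.85% to the antisense gene CYP51A1-AS1. No source used here says how reads in shared exons were assigned. The exons of the other 5 genes share 0 bases with another gene. Neither AC000120.2 nor CYP51A1-AS1 was listed in any table. Of the words of 50 bases in its transcripts, 8.95% occur in the pseudogene CYP51A1P1 and 12.1% in CYP51A1P2, neither of which was listed.

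LBR (ENSG00000143815, chromosome 1, 225401502 to 225428925, minus strand), the sterol reductase and lamin B receptor, was the one gene of the 6 listed as lower. It had 711, 1123 and 1019.8 normalised reads with the combination, against 2606, 2371 and 2943 with DMSO. Every combination library was below every DMSO library, and combination replicate 1 was the lowest. The means were 951 ± 214 with the combination and 2640.0 ± 287 with DMSO (SD, n = 3 each), a ratio of 0.360 and a log2 difference of -1.49 ± 0.16 (limma adjusted p = 9.29e-06). The recovered whole reads behind these values were 649, 1212 and 1065 with the combination and 2668, 2583 and 2757 with DMSO. Under the 12 alternatives tried the log2 difference ran from -1.62 to -1.30, and each of them kept the call. TM7SF2, which encodes the other reductase of this step, was not listed in any table.

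Other genes of the nuclear envelope and of the chromatin bound to it were counted beside LBR. Of a list of 15 such genes, chosen with earlier results of these data known, 5 were lower and 1 higher in the combination table and 9 were not listed, and none of the 15 was in the tables of the single drugs. Among all genes tested by the authors, 7.27% were listed as lower and 10.3% as higher with the combination. In the authors' deposited table the median log2 fold change of these 6 was -1.18, against 1.17 over the whole table, and since both hold only genes past the limit of 1, the medians reflect which direction the majority took. Thymopoietin, TMPO, a lamina-binding membrane protein, had 1597, 2266 and 2222 normalised reads with the combination, against 5272, 4931 and 6597 with DMSO (log2 -1.47 ± 0.16). LMNB1, a B-type lamin, had 1828, 1961 and 1946 with the combination, against 4973, 4968 and 5132 with DMSO (log2 -1.39 ± 0.09), and LMNB2, the other B-type lamin, had 5252, 4811 and 5047 with the combination, against 11657, 14035 and 9611 with DMSO (log2 -1.21 ± 0.13). SYNE1, which links the nuclear envelope to the cytoskeleton, was higher, with 1155, 1819.8 and 1699 with the combination, against 374, 338 and 419 with DMSO (log2 2.02 ± 0.17). The limma adjusted p-values of these 4 genes ran from 2.83e-07 to 1.03e-05. In LBR and in TMPO, LMNB1, SYNE1 and SYNE2 the library of combination replicate 1 was the lowest combination library, and in LMNB2 and CBX1 it was the highest. The remaining lower genes, named after their values were seen, were CBX1, a heterochromatin protein, at a ratio of 0.461, and SYNE2, a relative of SYNE1, at a ratio of 0.456. Whether these genes and LBR changed for a shared reason was not tested.

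**Figure D4:**
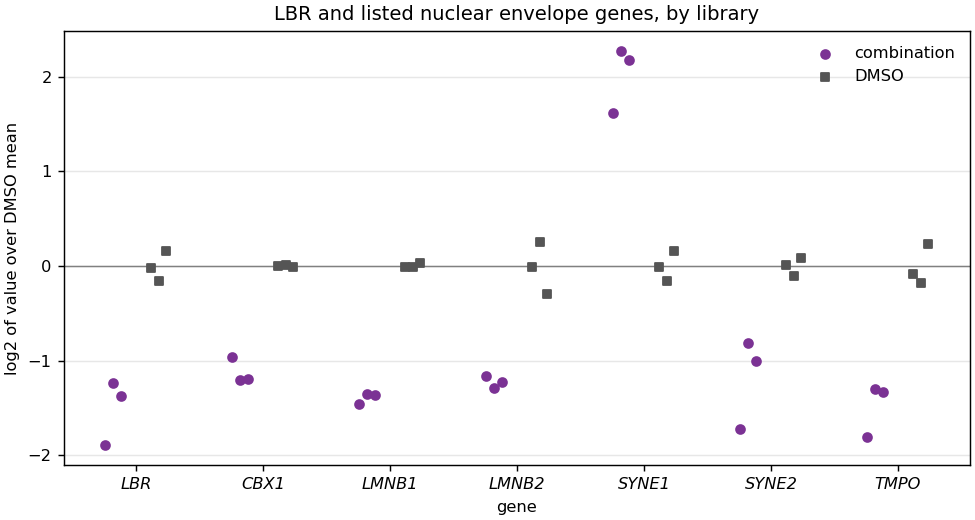
LBR and the 6 listed nuclear envelope genes in the combination table, as log2 of each library's value over the gene's DMSO mean. Circles are combination libraries and squares are DMSO libraries. LBR and 5 of the other genes lie below the DMSO libraries and SYNE1 above, with no overlap between the groups in any of them.

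Per length of the gene, the 6 genes differed widely in level. The length is that of all exon bases annotated for the gene, which need not be the length of the transcript expressed. The order of different genes thus depends on the annotation. On the scale of the combination table, LBR had 181 ± 40.7 normalised reads per kb with the combination, CYP51A1 60.4 ± 23.5 and HSD17B7 36.0 ± 3.46 (SD, n = 3 each). With ezetimibe DHCR7 had 521 ± 15.5, MSMO1 330 ± 27.5 and CYP51A1 64.1 ± 5.77 per kb. With fenofibrate the order of the 4 listed genes was DHCR7 at 933 ± 99.3, MSMO1 at 654 ± 72.5, NSDHL at 421 ± 72.2 and HSD17B7 at 48.9 ± 5.58 per kb. In DMSO LBR had 502 ± 54.6 per kb, DHCR7 230.4 ± 12.1, NSDHL 192 ± 6.86, MSMO1 151 ± 22.7, CYP51A1 29.9 ± 6.21 and HSD17B7 17.6 ± 0.542 (SD, n = 3 each). No 2 neighbours in this order overlapped over the DMSO libraries, though the counts of CYP51A1 and HSD17B7 carry the limits given above. Per kb MSMO1 was thus above NSDHL with fenofibrate and below it in DMSO, without overlap between their libraries in either group. Before division by length, the DMSO mean beside fenofibrate was 427 for MSMO1 and 373 for NSDHL.

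Over the listed genes that averaged 50 or more, combination replicate 1 deviated most from its group, with an SD of log2 deviations of 0.267, against 0.150 to 0.194 in the other combination libraries and 0.167 to 0.223 in the DMSO libraries. In LBR and CYP51A1 it was the lowest combination library, and in HSD17B7 the highest. The recovered reads per library in the combination table ran from 2550718 to 3265200, and the depth of the whole libraries is unknown. Of the 6 epithelial markers fixed for a check of the cell line, KRT7 was listed, as higher with the combination (49.3, 32.4 and 34.5 normalised reads, against 4.88, 5.51 and 1.07 with DMSO), and of 5 mesenchymal and 5 leukocyte markers 0 were listed. Of 4 endothelial markers CDH5 was listed, as lower with ezetimibe, and of 5 fibroblast markers COL1A1 and PDGFRB were listed, as lower with the combination. Since unlisted genes carry no values, the identity of the cells could not be checked further.

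Values of MSMO1, NSDHL and DHCR7 with the combination are not in the tables used here, so no change can be given for them. As no gene of the 6 was in all 3 tables, the combination could not be set against the sum of the single drugs for any of them. Of the 49 genes that were, 16.3% were called above that sum and 55.1% below it.

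Genes of the rest of the pathway were counted from lists chosen with earlier results of these data known. Of 13 genes of the early arm, 1 was lower with the combination, 1 was higher with ezetimibe and 8 were higher with fenofibrate, and the others were not listed. Over all genes tested these shares were 7.27% lower with the combination, 2.7% higher with ezetimibe and 0.761% higher with fenofibrate, so 1 of 13 with the combination is near the background. FDFT1, the squalene synthase, had a ratio of 2.17 with ezetimibe. With fenofibrate it had 3043, 3562 and 2986 normalised reads, against 821, 777 and 747 with DMSO, a ratio of 4.09. HMGCS1, the synthase ahead of the rate-limiting step, had a ratio of 3.45 with fenofibrate, MVD, the decarboxylase that makes isopentenyl diphosphate, one of 3.20 and MVK, the mevalonate kinase, one of 3.11. ACAT2, the thiolase of the first step, named after its values were seen, had 423 ± 12.1 normalised reads with the combination and 1003 ± 11.4 with DMSO (SD, n = 3 each).

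Genes of sterol sensing and uptake were listed with every treatment. Of the 12 such genes reported here, 3 were higher with the combination, 4 with ezetimibe and 4 with fenofibrate, where 10.3%, 2.7% and 0.761% of all genes tested were. INSIG1, which holds SREBP in the endoplasmic reticulum, had a ratio of 2.48 with ezetimibe and 4.39 with fenofibrate and was not listed with the combination. STARD4, a sterol transfer protein, had a ratio of 4.32 with the combination, 2.54 with ezetimibe and 3.02 with fenofibrate. NPC1L1, the protein that ezetimibe inhibits, had a ratio of 3.01 with ezetimibe and 3.71 with fenofibrate, with under 50 normalised reads in every library. NPC1, which exports cholesterol from lysosomes, was listed with the combination, at 1814, 1947 and 1851 normalised reads, against 591, 584 and 527 with DMSO, a ratio of 3.30. On 1 scale STARD4 was higher with the combination than with ezetimibe, by a log2 difference of 0.75 ± 0.17 (limma adjusted p = 0.0014). Against fenofibrate the log2 difference was 0.52 ± 0.20 (limma adjusted p = 0.0357), but the libraries overlapped. They had 458, 684 and 666 with the combination and 495, 322 and 448 with fenofibrate. Of the genes listed for both, 53.2% were called higher with the combination than with ezetimibe, and 69.2% than with fenofibrate. The alternatives were not run for STARD4. Of 10 genes of sterol efflux and LXR response, 2 were lower with the combination, where 7.27% of all genes tested were, and 0 were listed with ezetimibe or fenofibrate, where 0.772% and 0.0737% were listed as lower. These were MYLIP, a ubiquitin ligase, at a ratio of 0.322, and LPCAT3, a phospholipid acyltransferase, at 0.480. In the authors' deposited tables the median log2 fold change of the listed late genes was 1.01 with the combination, 1.13 with ezetimibe and 1.74 with fenofibrate, against 1.17, 1.20 and 1.20 over the whole tables, all of them over listed genes alone.

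**Figure D5:**
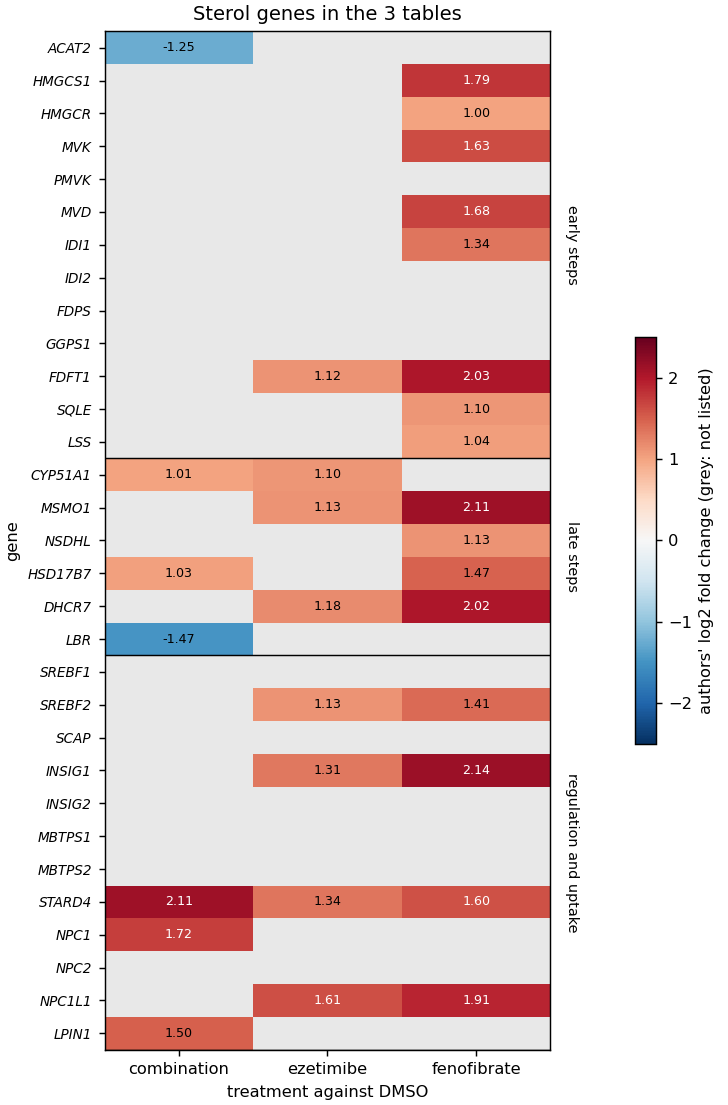
Log2 fold changes against DMSO from the authors' deposited tables for genes of the early arm, the 6 late genes, and regulation and uptake, with grey for genes not listed. Of the 13 early genes 1 is listed with the combination, 1 with ezetimibe and 8 with fenofibrate.

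The genes with values most like those of the late genes were found by the distance between log2 values relative to DMSO over 9 libraries, among protein-coding genes that averaged 50 or more in the same 2 tables. For DHCR7 the nearest of 55 genes was FDFT1, at a distance of 0.191, then INSIG1 at 0.562 and SH2D5 at 0.866. MSMO1 had the same 3 neighbours in the same order, at 0.426, 0.530 and 0.803. For HSD17B7 the nearest of 60 genes were TMEM150A, CLCN6 and PIK3CD, at 0.833, 0.836 and 0.980. For CYP51A1 the nearest of 243 were APOL6, ABCA3 and ZMAT1, at 1.07, 1.10 and 1.13. Its distances were over combination, ezetimibe and DMSO libraries, those of HSD17B7 over combination, fenofibrate and DMSO libraries. Those of DHCR7 and MSMO1 were over ezetimibe, fenofibrate and DMSO libraries. Distances over unlike libraries cannot be set against each other, and they also take in the spread of the gene's own libraries.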

How the data were processed

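RNA-seq libraries of Cal51 cells were grouped by the labels, 3 per group, and 12 of 18 were used. Tools given in the submitters' processing notes are featureCounts 1.5.0-p3, HISAT2 2.0.5 and fastp, with build hg38. Per the file headers, the 3 deposited tables give a signal for each library, which by its values is a read count scaled by a library factor, and the log2 fold change and p-value of the authors' own deposited comparison, for called genes alone. No source used here names the tool of that comparison.

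Each table was fitted with limma 3.58.1 in R 4.3.3, with its trend option, on log2 values after adding 1, which draws changes of low genes towards 0, with 2-sided p-values, Benjamini-Hochberg adjustment over the table and a threshold of 0.05. Treatments were compared over genes in both tables after scaling by their shared DMSO libraries (their mean ratio to the values beside the combination was 1.00 for ezetimibe and 0.975 for fenofibrate). Whole reads were recovered for the combination table alone (within 0.01 for 100% of values). On them edgeR 4.0.16 (quasi-likelihood) and DESeq2 1.42.0 were run as alternatives. The smallest exact permutation p for groups of 3 is 0.1. Levels per kb used the deposited gene length. Other alternatives were the pseudocount, a filter on low values, a replicate block and leaving out each library.

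The genes and lists were chosen with earlier results of these data known. Named genes were the 6 enzymes, up to 4 listed genes of each list with the largest log2 fold change, and the 3 nearest genes outside the 6. Others are marked as chosen after their values were seen. Some genes of the pathway lists are not reported here, and the counts leave them out.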

Additional observations from a re-analysis of the deposited data

How the results depend on the processing

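Of the alternatives for single genes, 235 kept direction and side of the threshold, 4 lost the call and 1 reversed; of those for counts of called genes, 188 stayed within 1.5 times and 2 did not. The reversal was CYP51A1, combination against ezetimibe, whose log2 difference of -0.17 was 0.20 without combination replicate 1, and ran from -0.41 to 0.20 over all alternatives. The lost calls are those given above for CYP51A1 (0.70 and 0.80) and HSD17B7 (-0.38 and -0.34), each without 1 library. A filter on a mean value of 50 left 216 genes called higher with ezetimibe, against 366, and 1128 with the combination, against 2058, since fewer genes were tested. In the combination table edgeR gave -1.47 for LBR and 1.01 for CYP51A1, and DESeq2 the same values. Count tests were not run for the other comparisons, for which no recovered whole reads were used. Correlations between the deviations of same-numbered libraries ran from -0.327 to 0.157. They cannot decide whether the numbers pair the libraries, since deviations from a group mean are tied to each other and cover listed genes alone. The labels do not say. With the replicate block the counts for the combination against DMSO stayed at 2058 higher and 1450 lower, and ezetimibe against fenofibrate had 23 higher, against 26 without the block; no call of the 6 genes changed. The depth of the whole libraries is unknown, and genes with smaller changes cannot be read from these tables.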
